A study of Homo sapiens with 12 samples.

Results

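The respiratory chain genes described here are 47 genes whose products sit in the inner membrane of the mitochondrion: all 13 protein genes of the mitochondrial genome and 34 nuclear genes for subunits of complexes I to IV. They were picked by name, after removing the version from each Ensembl gene ID and matching it to its symbol. All 47 matched, of 47634 IDs listed in every library, and all 47 passed the filter on low counts. The libraries come from HepG2, a human hepatocellular carcinoma line that keeps many liver functions. The 4 groups of 3 libraries are ATP7B knockout (KO) cells given copper for 24 h, untreated KO cells, wild type (WT) cells given copper for 24 h, and untreated WT cells. ATP7B exports copper from hepatocytes and is mutated in Wilson disease. The labels call the libraries biological replicates and do not give the number of KO clones, the copper dose or the position of the edit. P-values measure the spread between these libraries, and whether that includes independently made KO clones cannot be told.

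The respiratory chain passes electrons through complexes I, III and IV and pumps protons, and ATP synthase, also called complex V, uses the proton gradient to make ATP. Complex II feeds in electrons from succinate and has no subunit encoded in the mitochondrion. The mitochondrial genome is transcribed inside the organelle as long transcripts that are cut into separate RNAs, while the nuclear genes are transcribed 1 by 1 and their proteins imported, so each mixed complex draws on both genomes. Complex IV, cytochrome c oxidase, carries copper in the subunits encoded by MT-CO1 and MT-CO2 and needs copper chaperones to be built.

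Library totals were 2388597 to 2807634 counts in KO copper, 976658 to 3277087 in KO untreated, 1873703 to 2581954 in WT copper and 3561723 to 3829151 in WT untreated. Levels are given as CPM (the gene's count over the library total, scaled as usual), and 3 counts, taken as the floor, equal 0.783 to 3.07 CPM. A library of this kind holds about 1 read per transcript near its polyadenylated end. Among the 12, 3 libraries stood apart. Over all genes tested, KO untreated replicates 1 and 2 scored 111.4 and 120.4 on the first principal component and WT copper replicate 1 scored 23.9, while the other 9 libraries were below 0. KO untreated replicates 1 and 2 had the lowest totals of all, with 1443372 and 976658 counts, and correlations within that group were 0.798 to 0.927, against 0.986 to 0.988 in WT untreated. Counts of changed genes below, or for some lists medians, are also given for the remaining 9 libraries, a choice made with the data known. KO untreated is there replicate 3 alone, which the fit assumes to vary like the other groups. All 8 hepatocyte markers were counted in every group, with sums of 3291 to 3466 CPM in KO copper, 7111 to 9046 in KO untreated, 7261 to 8327 in WT copper and 15731 to 16604 in WT untreated. Of 8 markers of blood, endothelial and connective tissue cells PECAM1 was not matched to an ID, and the other 7 had counts. Their sums were 21.4 to 62.9 CPM in KO copper, 51.96 to 104.1 in KO untreated, 28.3 to 37.9 in WT copper and 44.9 to 53.0 in WT untreated. PTPRC was at 0 in KO copper, KO untreated and WT copper, CDH5 in both KO groups, and LUM in KO untreated. ATP7B itself had 3.92, 4.19 and 6.77 CPM in KO copper, 9.01, 2.05 and 11.6 in KO untreated, 5.34, 3.92 and 3.87 in WT copper, and 12.7, 13.1 and 12.4 in WT untreated. KO and WT did not differ in ATP7B past the threshold, untreated (log2 -0.75 ± 0.38 SE, edgeR adjusted p = 0.148) or in copper (0.15 ± 0.44, adjusted p = 0.855). A read near the 3′ end does not check an edit elsewhere in the gene.

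The 13 mitochondrially encoded genes together held a smaller share of the library in untreated WT cells than in any other group. They took 4.27%, 4.21% and 4.29% of all counts in KO copper and 2.53%, 4.65% and 3.03% in KO untreated. The share was 2.62%, 3.97% and 3.47% in WT copper and 1.22%, 1.0% and 1.30% in WT untreated. The group means were 4.26% ± 0.04 in KO copper, 3.40% ± 1.11 in KO untreated, 3.35% ± 0.68 in WT copper and 1.18% ± 0.15 in WT untreated (SD, n = 3 each). No library of the other groups overlapped WT untreated. The 34 nuclear-encoded genes together moved less, and their share was highest in WT untreated. It was 0.437%, 0.393% and 0.406% in KO copper, 0.294%, 0.272% and 0.481% in KO untreated, 0.316%, 0.375% and 0.411% in WT copper, and 0.494%, 0.517% and 0.488% in WT untreated. Both mean shares were higher in KO copper than in KO untreated, at 0.41% and 0.35% for the nuclear-encoded genes. All 3 libraries that stood apart lay below the rest in this share. The 95% Wilson intervals reached at most 0.0418 percentage points to either side for the first share and 0.0103 for the second, and cover counting error only.

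Dividing the first sum by the second gives a ratio within each library that does not depend on how libraries are scaled. It was 9.76, 10.7 and 10.6 in KO copper, 8.61, 17.1 and 6.31 in KO untreated, 8.28, 10.6 and 8.43 in WT copper, and 2.47, 1.94 and 2.67 in WT untreated. On the log2 scale the means were 3.37 ± 0.07, 3.29 ± 0.74, 3.18 ± 0.20 and 1.23 ± 0.24 in that order of groups (SD, n = 3 each). The log2 ratio was 1.95 higher with copper in WT and 2.06 higher in KO than in WT when both were untreated, against a pooled SD of 0.40. With copper it was 0.19 higher in KO than in WT. In KO it was 0.08 higher with copper than without, a difference below the pooled SD, and KO untreated replicate 2 with its ratio of 17.1 weighs on that value: without that library it was 0.49, without the 3 libraries that stood apart 0.71, and with MT-CO3 left out of the sum 0.67. The sign turned without KO untreated replicate 3 (-0.23) and without replicate 1 (-0.01). Without MT-CO3 the ratio was 8.06, 8.68 and 8.32 in KO copper, 3.91, 7.33 and 5.02 in KO untreated, 6.21, 8.44 and 7.01 in WT copper, and 2.01, 1.60 and 2.14 in WT untreated. These ratios get no p-value, since the genes were chosen with results of these libraries known. In a bulk library, more cells expressing a gene and more of its RNA per cell cannot be told apart, nor can more mitochondrial genomes and more RNA from each.

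**Figure D1:**
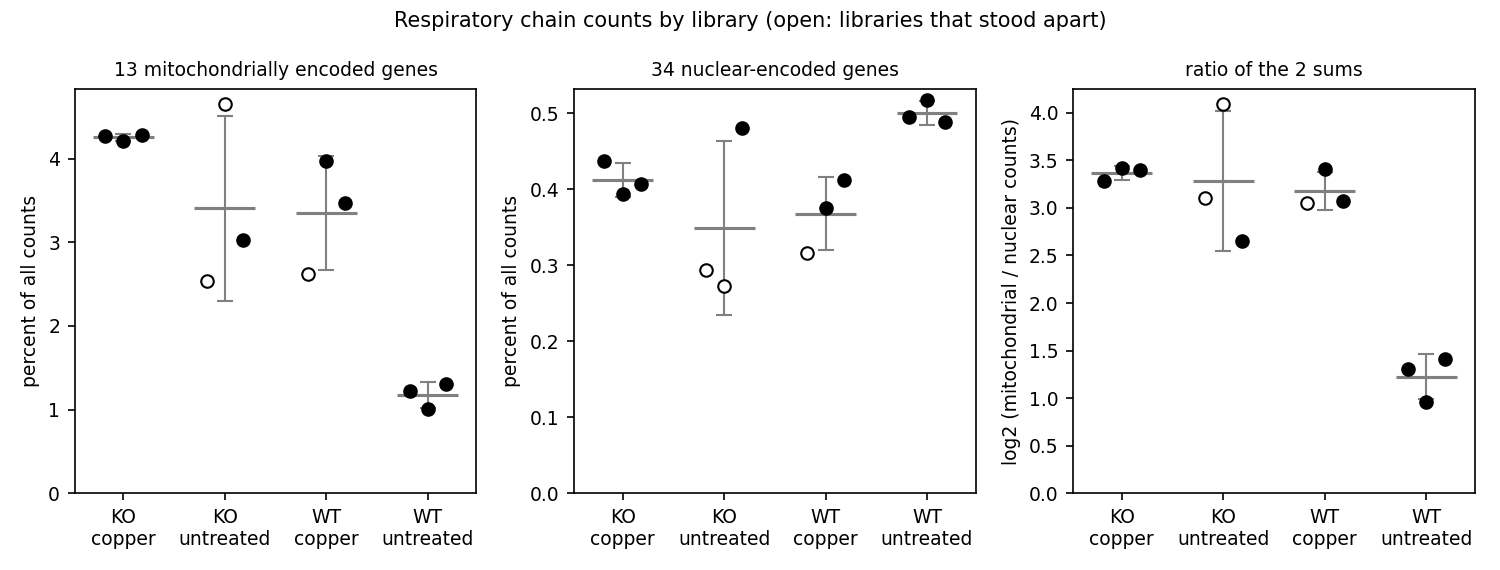
Percent of all counts held by the 13 mitochondrially encoded genes (left) and by the 34 nuclear-encoded genes (middle), and log2 of their ratio (right), for each library. Points are libraries, open where the library stood apart, grey lines are group means and bars are SD with n = 3. The 3 WT untreated libraries have the lowest mitochondrial shares, 1.0% to 1.30%, and the highest nuclear shares, 0.488% to 0.517%.

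The same ratio within single complexes separated WT untreated from the rest in complexes I, III and IV. For complex I, 7 mitochondrially encoded over 16 nuclear-encoded subunits, it was 12.4, 12.4 and 11.6 in KO copper, 4.90, 10.8 and 7.64 in KO untreated, 9.24, 12.9 and 11.7 in WT copper, and 3.81, 3.01 and 3.84 in WT untreated. For complex III, MT-CYB over 6 nuclear subunits, it was 2.27, 2.25 and 2.50 in KO copper, 0.582, 0.935 and 1.14 in KO untreated, 1.59, 2.01 and 1.65 in WT copper, and 0.282, 0.237 and 0.291 in WT untreated. Here no groups overlapped, with KO copper highest, then WT copper, KO untreated and WT untreated. For complex IV, 3 over 8 subunits, it was 7.26, 8.50 and 8.87 in KO copper, 14.7, 26.8 and 5.28 in KO untreated, 6.96, 7.80 and 5.66 in WT copper, and 1.78, 1.34 and 2.04 in WT untreated. KO untreated replicates 1 and 2 exceeded every other library in this complex alone. Complex II, with nuclear subunits only, summed to 129.7, 97.1 and 100.7 CPM in KO copper, 71.4, 88.1 and 124.2 in KO untreated, 47.5, 57.5 and 77.1 in WT copper, and 118.9, 126.4 and 99.95 in WT untreated, so WT copper was lowest and overlapped KO untreated only.

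Most mitochondrially encoded genes were higher with copper in WT cells. Of the 13 genes 10 rose and none fell at an adjusted p below 0.05 (edgeR quasi-likelihood test, Benjamini-Hochberg over 11051 genes), against 8.23% of all genes higher and 14.9% called either way. Their median log2 fold change was 1.62, beside -0.03 over all genes. The highest was MT-CO1, the core subunit of complex IV that holds heme and copper. It had 1504, 1511 and 1196 CPM in WT copper, against 327, 286 and 357 in WT untreated (log2 2.14 ± 0.28 SE, adjusted p = 5.3e-04). MT-CYB, the mitochondrial subunit of complex III, had 844, 1638 and 1626 CPM in WT copper, against 357, 305 and 353 in WT untreated (2.04 ± 0.44, adjusted p = 0.0098). The groups did not overlap for either gene, and WT copper replicate 1 was the low one for MT-CYB. MT-ND5, a proton-pumping subunit of complex I, rose by 2.0 ± 0.29, and MT-ATP6, the membrane subunit of ATP synthase that forms the proton path, by 1.91 ± 0.27 on the log2 scale. MT-ND1, also of the membrane arm of complex I, had 845, 981 and 957 CPM in WT copper, against 292, 275 and 292 in WT untreated (1.72 ± 0.19, adjusted p = 2.1e-04). MT-CO2 rose least of the 10, by 1.11 ± 0.33. The 3 that did not pass were all of complex I: MT-ND3 (1.0 ± 0.66), MT-ND6 (0.86 ± 0.50) and MT-ND4L (0.72 ± 0.26).

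In the remaining 9 libraries all 13 rose in WT copper, with a median of 1.76, beside 20.4% of 11955 genes higher and 40.0% called either way. Leaving out WT untreated replicate 2 left 6 of the 13, with MT-CYB at an edgeR adjusted p of 0.0543. That fit called 736 of 11475 genes either way, beside 1648 of 11051 in all libraries. The calls of MT-CO2 and MT-ATP8 were each lost without any of 8 single libraries and that of MT-CO3 without any of 5, WT untreated replicates 1 to 3 among them in each case, whereas the other 6 held in all 19 alternatives.

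The nuclear-encoded subunits did not rise with them. In WT copper 31 of the 34 had a negative log2 fold change, with a median of -0.52, and 1 of them passed the test, beside 6.68% of all genes lower. That gene was SDHA, the flavin-carrying subunit of complex II, with 37.4, 41.0 and 43.0 CPM in WT copper, against 69.9, 62.7 and 61.2 in WT untreated (log2 -0.65 ± 0.20, adjusted p = 0.0454). The call was lost without any of 8 single libraries, among them each replicate of WT copper and of WT untreated, with RLE scaling, without the low count filter and with the replicate block. Its promoter is shown because it carries 4 copies of the motif of NRF1, a factor known to activate many respiratory chain genes. The 300 bases run from 250 before to 50 after the first listed start (RefSeq, GRCh38.p14, plus strand, chr5:218070-218369), with the motif matches in capitals.
SDHA: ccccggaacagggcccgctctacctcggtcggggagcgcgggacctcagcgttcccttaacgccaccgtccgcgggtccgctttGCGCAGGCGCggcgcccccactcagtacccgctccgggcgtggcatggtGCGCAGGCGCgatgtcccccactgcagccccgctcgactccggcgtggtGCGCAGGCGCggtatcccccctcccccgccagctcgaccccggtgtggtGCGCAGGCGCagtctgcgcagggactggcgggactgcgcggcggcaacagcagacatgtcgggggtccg

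In the remaining 9 libraries 2 nuclear-encoded genes rose and 15 fell in WT copper, beside 19.6% of all genes lower. SDHA fell by 0.56 there. Of the 6 nuclear subunits of complex III 4 were among the 15. Leaving out KO untreated replicate 3 instead, which adds only to the pooled spread here, gave 15 lower and none higher. How many of all genes that fit called is not given here. UQCRC2, a core subunit, had 37.9, 108 and 152 CPM in WT copper, against 244, 243 and 219 in WT untreated, with log2 fold changes of -1.22 ± 0.58 in all libraries (adjusted p = 0.18) and -0.79 ± 0.13 without the 3 (adjusted p = 2.7e-05). CYC1, the cytochrome c1 heme protein, had 43.8, 55.3 and 70.1 CPM in WT copper, against 109, 102 and 111 in WT untreated, with -0.90 ± 0.41 (adjusted p = 0.16) and -0.71 ± 0.13. The copper libraries lay below the untreated ones for both genes. The 2 that rose were NDUFB9 (0.38 ± 0.09) and NDUFV2. NDUFV2 had 41.6, 98.5 and 104 CPM in WT copper, against 82.2, 77.8 and 92.7 in WT untreated, with -0.03 ± 0.50 in all libraries and 0.33 ± 0.12 without the 3.

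In KO cells 6 of the 13 mitochondrially encoded genes rose with copper and none fell by edgeR, against 15.2% of all genes higher and 33.7% called either way. Their median log2 fold change was 1.01, beside 0.01 over all genes. MT-CYB had 2354, 2097 and 2267 CPM in KO copper, against 306, 441 and 1330 in KO untreated (log2 1.84 ± 0.44, adjusted p = 0.0074). MT-ND1 had 1362, 1158 and 1123 CPM in KO copper, against 544, 574 and 734 in KO untreated (1.10 ± 0.19, adjusted p = 0.0012). MT-ATP8, a small ATP synthase subunit whose reading frame overlaps that of MT-ATP6 by 46 bases, rose by 1.49 ± 0.41. MT-CO2, which accepts electrons from cytochrome c, rose by 1.04 ± 0.33, MT-ND4 by 1.03 ± 0.27 and MT-ND4L by 1.01 ± 0.26. In KO untreated, replicate 3 was nearest to the copper libraries for MT-CYB and MT-ND1. MT-ND6 (-1.28 ± 0.50, edgeR adjusted p = 0.066) and MT-CO3 (-0.84 ± 0.42, adjusted p = 0.14) had negative values that did not pass. DESeq2 called 8 of the 13 genes higher and 1 lower, beside 1825 and 2368 of all 11051.

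In the remaining 9 libraries 10 of the 13 rose in KO copper and none fell, with a median of 0.75, beside 19.1% of genes higher and 39.6% called either way. All 13 values were then positive, with MT-ND6 at 0.37 ± 0.23 and MT-CO3 at 0.57 ± 0.24. MT-CYB was then at 0.93 ± 0.12, MT-ATP8 at 0.71 ± 0.17, MT-CO2 at 0.51 ± 0.12 and MT-ND4L at 0.46 ± 0.12, all called. Leaving out KO untreated replicate 3 in place of those 3 gave 8 higher and 2 lower, in a fit whose all-gene share is not given here. In the 12 libraries the calls of MT-ND1, MT-ND4L and MT-CYB held in all 19 alternatives. MT-ND4 was lost without KO copper replicate 1, MT-ATP8 without KO untreated replicate 2 or KO copper replicate 2, and MT-CO2 without KO untreated replicate 1 or 2 or any KO copper replicate.

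**Figure D2:**
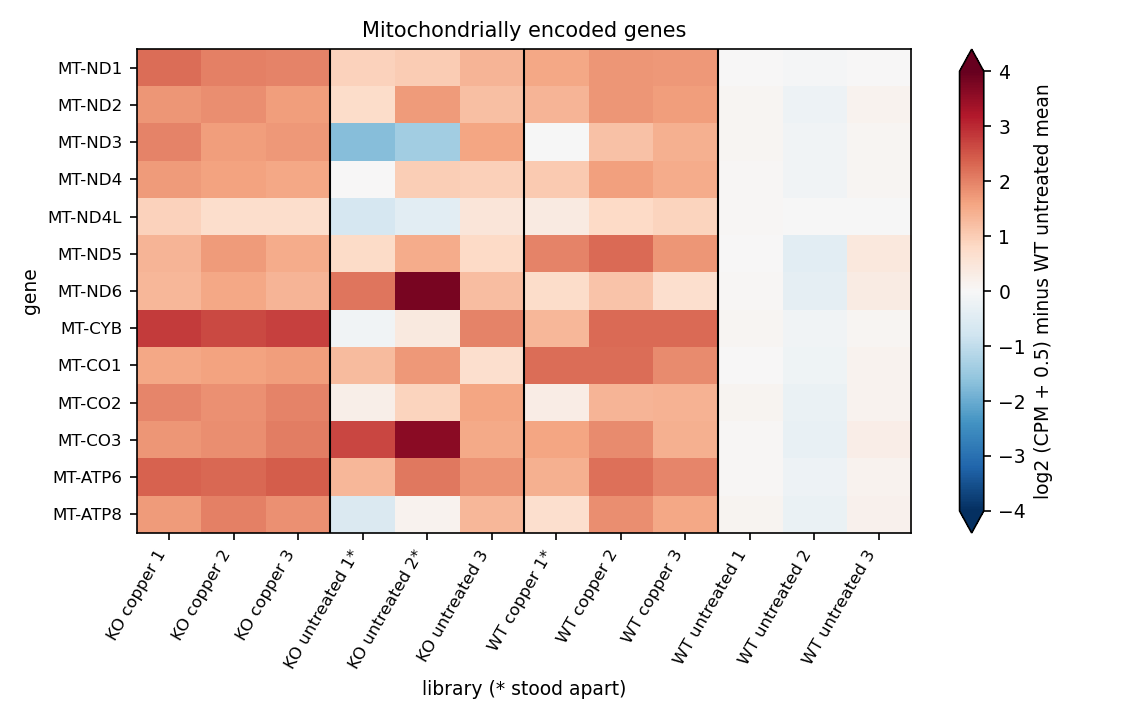
Level of each mitochondrially encoded gene (rows) in each of the 12 libraries (columns), as log2 (CPM + 0.5) minus the mean of the WT untreated libraries. Asterisks mark the libraries that stood apart, and the colour scale ends at -4 and 4. MT-CO3 and MT-ND6 are highest in KO untreated replicates 1 and 2, where MT-ND3 lies below WT untreated.

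**Figure D3:**
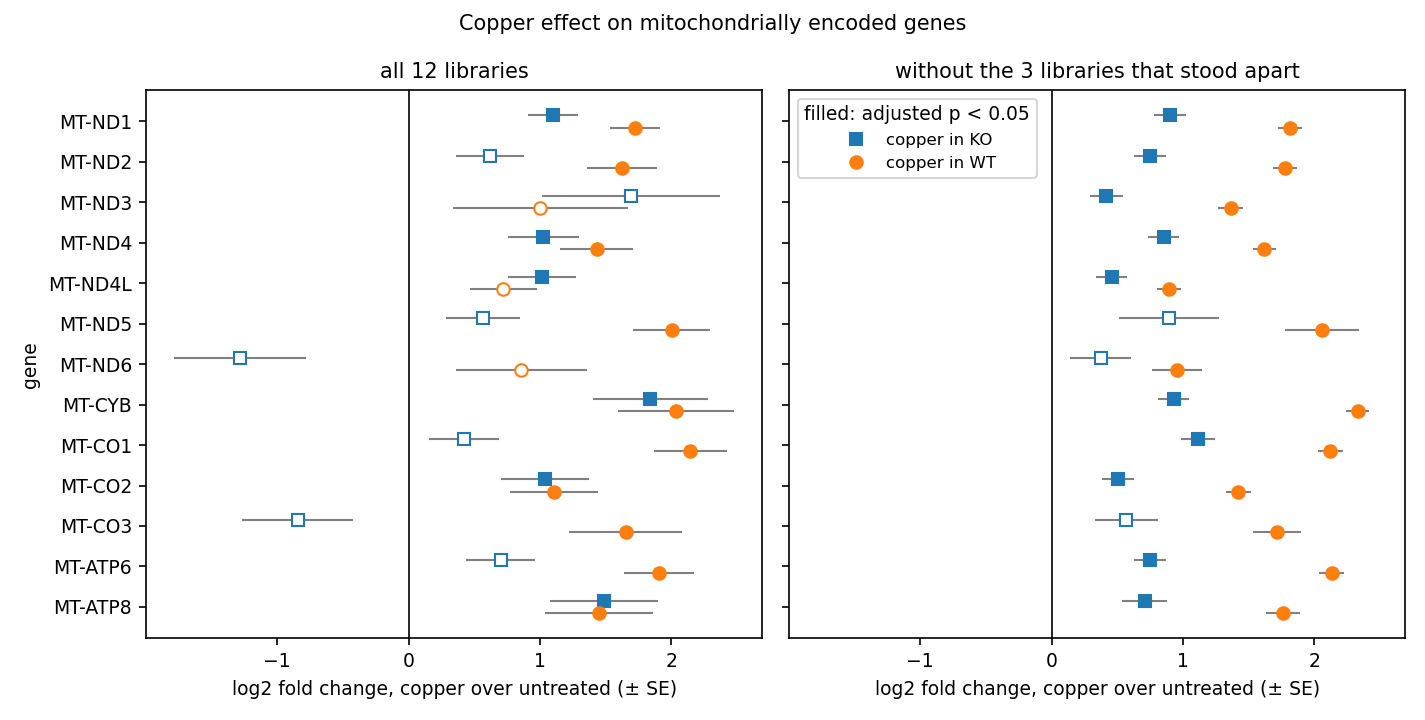
Copper effect on each mitochondrially encoded gene, as log2 fold change of copper over untreated with SE bars, in KO (squares) and WT (circles). Filled symbols passed an adjusted p of 0.05. With all 12 libraries (left) MT-ND6 and MT-CO3 have negative values in KO, and without the 3 libraries that stood apart (right) all 26 values are positive and every KO value lies left of its WT value.

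Among nuclear-encoded subunits in KO copper, 3 rose and 2 fell, beside 15.2% of all genes higher and 18.5% lower. The median of the 34 was 0.67, with 27 positive and 7 negative. In the remaining 9 libraries it was -0.01, with 16 positive and 18 negative. NDUFV1, which carries the flavin where complex I takes electrons from NADH, had 81.2, 81.2 and 91.2 CPM in KO copper, against 365, 348 and 132 in KO untreated (log2 -1.64 ± 0.36, adjusted p = 0.0051). The lower level with copper held in all 19 alternatives, but the fold change was -0.46 without the 3 libraries that stood apart, since replicates 1 and 2 of KO untreated were the high ones. NDUFB10 fell by 0.49 ± 0.16, with 68.0, 65.7 and 70.9 CPM in KO copper, against 105, 93.2 and 114 in KO untreated. The groups did not overlap for either gene. The call of NDUFB10 held in 9 of the 19 alternatives and was lost without the low count filter (edgeR adjusted p = 0.23), with the replicate block (0.053) and without any of 8 single libraries, all 3 KO copper replicates among them. NDUFA10 (0.68 ± 0.19), NDUFB9 (1.20 ± 0.36) and SDHB, the iron-sulfur subunit of complex II (1.52 ± 0.55), rose. These calls held in 13, 14 and 7 of the 19 alternatives in that order, and each was lost without KO untreated replicate 1 or 2 or KO copper replicate 1 or 2. NDUFB9 had 334, 341 and 342 CPM in KO copper, against 114, 71.7 and 299 in KO untreated. The remaining 9 libraries had 2 that rose, NDUFB9 (0.36 ± 0.12) and NDUFV2 (0.41 ± 0.16), and 8 that fell, beside 20.5% of all genes lower, while NDUFA10 (0.33, adjusted p = 0.069 by edgeR) and SDHB (0.73, adjusted p = 0.056) were not called. UQCRFS1, the Rieske iron-sulfur protein of complex III, was at -0.73 ± 0.21 without them and at 0.35 ± 0.58 in all libraries. With a single library left out the count was 1 without KO untreated replicate 1 or KO copper replicate 1 or 2, and 2 without KO untreated replicate 2 or KO copper replicate 3. It was 3 without any WT untreated replicate or WT copper replicate 2, 9 without WT copper replicate 1 and 26 without KO untreated replicate 3. Calls over all genes moved too, with 3279 of 11479 without WT untreated replicate 1 and 4057 of 11533 without WT copper replicate 1, beside 3721 of 11051. The all-gene share without KO untreated replicate 3 is not given here, so the 26 cannot be set beside it.

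In untreated cells 7 of the 13 mitochondrially encoded genes were higher in KO than in WT and none lower, against 17.9% of all genes higher and 31.9% called either way, and the medians were 0.90 for the 13 and -0.02 for all genes. MT-CO3, a core subunit of complex IV without a metal centre, had 13817, 26532 and 6205 CPM in KO untreated, against 2268, 1753 and 2586 in WT untreated (log2 2.72 ± 0.45, adjusted p = 0.0015). MT-ND6, the complex I subunit read from the opposite strand of the mitochondrial genome to the other 12, had 567, 1778 and 298 CPM in KO untreated, against 132, 98.5 and 159 in WT untreated (2.67 ± 0.52, adjusted p = 0.0037). All KO libraries exceeded all WT libraries for both genes, with the highest values in KO untreated replicates 1 and 2. The fold changes in the remaining 9 libraries were 1.29 ± 0.22 for MT-CO3 and 1.0 ± 0.23 for MT-ND6. MT-ATP6 had 2360, 4063 and 3266 CPM in KO untreated, against 978, 816 and 1040 in WT untreated (1.66 ± 0.27, adjusted p = 0.0013). MT-CO1 was higher by 1.18 ± 0.27, MT-ND2 by 1.14 ± 0.26, MT-ND1 by 0.98 ± 0.19 and MT-ND5 by 0.90 ± 0.28. These calls held in all 19 alternatives except that of MT-ND5, which had an adjusted p of 0.29 without the 3 libraries and was also lost without WT untreated replicate 1 or 2 or KO untreated replicate 2. In those 9 libraries 12 of the 13 were higher, beside 16.8% of all genes, with MT-CO1 at 0.47 ± 0.12. MT-CYB had 1.77 ± 0.10 there, and 0.88 ± 0.43 with no call in all libraries.

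Of the 34 nuclear-encoded subunits 8 were lower and 1 higher in untreated KO cells, against 14.0% and 17.9% of all genes. The median was -0.87, and -0.32 in the remaining 9 libraries. Of the 8, 3 belonged to complex III. CYC1 had 15.2, 13.3 and 62.6 CPM in KO untreated, against 109, 102 and 111 in WT untreated (log2 -1.89 ± 0.42, adjusted p = 0.0067). UQCRC1, a core subunit of complex III, had 55.4, 32.8 and 91.5 CPM in KO untreated, against 123, 130 and 121 in WT untreated (-1.17 ± 0.28, adjusted p = 0.0087). Every KO library lay below every WT library for both genes, the calls held in all 19 alternatives, and the values without the 3 libraries were -0.98 ± 0.16 and -0.65 ± 0.16. The log2 fold changes were -1.77 ± 0.59 for UQCRC2, -1.69 ± 0.52 for NDUFV2, -1.40 ± 0.49 for NDUFA9 and -0.59 ± 0.19 for NDUFA10. The values in the remaining 9 libraries were -0.69, -0.69, -0.38 and, not called, -0.25. These calls held in 10, 14, 8 and 9 of the 19 alternatives in that order, and each was lost without any 1 of the WT untreated replicates and without KO untreated replicate 1 or 2. In complex IV COX5B was lower, with 127, 87.0 and 218 CPM in KO untreated, against 247, 254 and 243 in WT untreated (-0.91 ± 0.26, adjusted p = 0.019, and -0.38 ± 0.13 without the 3 libraries), a call lost without WT untreated or KO untreated replicate 1 or 2. COX7C was lower as well (-0.64 ± 0.17). KO untreated replicate 3 was the library nearest to WT for CYC1, UQCRC1 and COX5B. NDUFV1 was the 1 gene higher (1.37 ± 0.36), with 0.17 ± 0.14 and an adjusted p of 0.36 without the 3 libraries. Without those libraries 11 were lower and 1 higher, NDUFS8, beside 17.7% of all genes lower and 34.5% called either way. Counts ran from 2 without WT untreated replicate 2 to 26 without KO untreated replicate 3, and were 3 without WT untreated replicate 1 or KO untreated replicate 1, 5 without WT untreated replicate 3 and 4 without KO untreated replicate 2. Calls over all genes were 2105 of 11475 without WT untreated replicate 2, beside 3522 of 11051. Those without a KO untreated replicate are not given here. This comparison and the effect of copper in KO use the same untreated KO libraries, and it shares the untreated WT libraries with the effect of copper in WT.

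The promoters of UQCRC1 and COX5B, lower in untreated KO cells, are shown with their motif matches in capitals (RefSeq, GRCh38.p14, 5′ to 3′ on the strand of the gene). UQCRC1 lies on the minus strand at chr3:48609597-48609896, with an NRF1 match 47 bases before its start and a YY1 match 24 bases after it. COX5B lies on the plus strand at chr2:97645812-97646111, with GABPA matches 37 and 5 bases before its start.
UQCRC1: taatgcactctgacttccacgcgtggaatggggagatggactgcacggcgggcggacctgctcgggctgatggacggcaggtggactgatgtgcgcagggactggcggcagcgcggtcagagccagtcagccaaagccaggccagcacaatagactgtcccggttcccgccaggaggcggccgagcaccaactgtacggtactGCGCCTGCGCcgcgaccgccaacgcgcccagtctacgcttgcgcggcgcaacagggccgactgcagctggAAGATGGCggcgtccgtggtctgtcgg
COX5B: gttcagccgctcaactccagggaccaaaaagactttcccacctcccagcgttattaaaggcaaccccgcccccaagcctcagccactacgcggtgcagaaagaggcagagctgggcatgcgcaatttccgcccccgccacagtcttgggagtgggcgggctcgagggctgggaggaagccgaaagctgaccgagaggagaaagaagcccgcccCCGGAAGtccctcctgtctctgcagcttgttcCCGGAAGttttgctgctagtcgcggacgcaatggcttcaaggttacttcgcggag
The motifs searched on both strands were GCGCA, any base and GCGC in a row for NRF1, CCGGAAG for GABPA and other ETS factors, and AAGATGGC for YY1. Of the 34 nuclear-encoded genes 27 had a promoter in the RefSeq table. NRF1 letters were in 22.2% of these 27 and in 6.29% of all 27305 promoters of the same length, GABPA letters in 33.3% and 10.7%, and YY1 letters in 14.8% and 3.03%. At least 1 of the 3 was in 55.6% of the 27 and in 17.9% of all. Among the other genes lower in untreated KO cells, NDUFA9 had NRF1 and YY1 matches. UQCRC2, NDUFV2, NDUFA10 and COX7C had none, and CYC1 had no promoter listed. A match of letters describes the window and does not show binding.

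**Figure D4:**
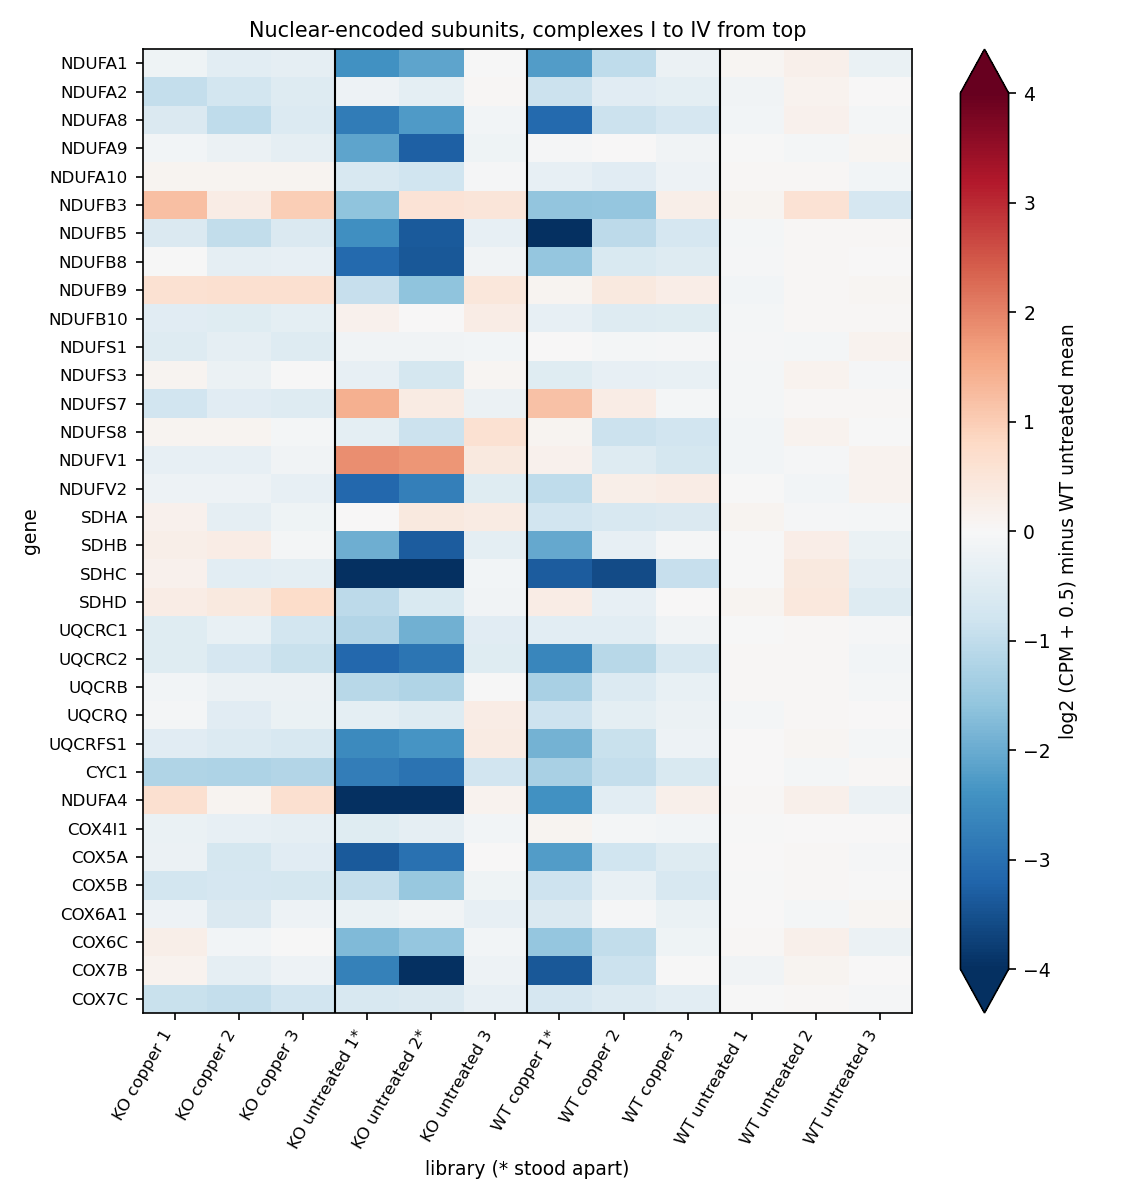
Level of each nuclear-encoded subunit (rows, complexes I to IV from the top) in each of the 12 libraries (columns), as log2 (CPM + 0.5) minus the mean of the WT untreated libraries. Asterisks mark the libraries that stood apart, and the colour scale ends at -4 and 4. Most rows are lowest in KO untreated replicates 1 and 2 and in WT copper replicate 1, and NDUFV1 is highest in the first pair.

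With copper, KO and WT cells did not differ past the threshold in any of the 47 genes by edgeR, while 5.77% of all genes were higher and 8.03% lower, 13.8% in all. At an unadjusted p below 0.05 there were 1 mitochondrially encoded and 6 nuclear-encoded genes, beside 3253 of all 11051. The medians were 0.36 and 0.38 for the 2 sets, beside 0.05 over all genes. Without the 3 libraries that stood apart they were 0.15 and 0.11 for the 2 sets. DESeq2 called 4 nuclear-encoded genes, all lower in KO, beside 1159 of all 11051 genes lower, and no mitochondrially encoded one. In the remaining 9 libraries 4 mitochondrially encoded genes were higher in KO and 1 lower, beside 17.3% and 20.6% of all genes and 37.9% called either way. The higher ones were MT-CO2 (0.46 ± 0.10), MT-ND3 (0.42 ± 0.10), MT-CYB (0.37 ± 0.09) and MT-ND1 (0.24 ± 0.09), and the lower one was MT-CO1 (-0.54 ± 0.10). MT-CO2 had 3154, 2905 and 3202 CPM in KO copper, against 1012, 2088 and 2138 in WT copper. MT-CO1 had 934, 990 and 1039 CPM in KO copper, against 1504, 1511 and 1196 in WT copper. The groups did not overlap for either gene, so the copper-carrying subunits of complex IV stood in opposite order. Of the nuclear-encoded genes 4 were then higher and 8 lower, with NDUFS8 at 0.78 ± 0.14 and NDUFS7 at -0.77 ± 0.15 on the 2 sides. Leaving out KO untreated replicate 3, which is in neither group but adds to the pooled spread, gave 4 mitochondrially encoded and 8 nuclear-encoded calls. A single nuclear-encoded gene was called without WT copper replicate 3, beside 1244 of 11469 genes in all. There was also 1 without KO untreated replicate 1. All-gene shares without either KO untreated replicate are not given here.

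The effect of copper itself was tested for a difference between the lines. Of the mitochondrially encoded genes 2 differed, both with a lower copper effect in KO, beside 4.93% of all genes called, 1.26% higher and 3.67% lower. MT-CO1 had a copper effect of 0.42 ± 0.27 in KO and 2.14 ± 0.28 in WT, a difference of -1.72 ± 0.38 (adjusted p = 0.038). For MT-CO3 the effects were -0.84 ± 0.42 in KO and 1.65 ± 0.43 in WT, a difference of -2.50 ± 0.60 (adjusted p = 0.042). No nuclear-encoded gene differed past the threshold. At an unadjusted p below 0.05 there were 14, and DESeq2 called 7, beside 3607 and 1831 of all 11051 genes. The medians of the differences were -0.62 for the 13 genes, 1.18 for the 34 and 0.02 for all genes. Without the 3 libraries that stood apart they were -1.01, 0.32 and -0.02. In the remaining 9 libraries 9 of the 13 differed, all with less increase in KO, beside 4.99% of all genes lower, 3.78% higher and 8.77% called either way. The largest was then MT-CYB (-1.40 ± 0.14), with MT-ATP6 at -1.38 ± 0.15, MT-CO1 at -1.01 ± 0.15, and MT-CO3 at -1.15 ± 0.29 and no longer called (adjusted p = 0.052). Both calls were lost with the replicate block (edgeR adjusted p of 0.055 for MT-CO1 and 0.061 for MT-CO3), and that of MT-CO3 with limma voom (0.059). Calls over all genes fell as well, from 545 of 11051 to 113 with the block and 160 with limma voom. The calls of MT-CO1 and MT-CO3 were also lost when any 1 of 10 libraries was left out (edgeR adjusted p up to 0.12) and held without WT copper replicate 3. Of all genes 13 of 11479 were called without WT untreated replicate 1 and 42 of 11533 without WT copper replicate 1. Without KO untreated replicate 3 there were 9 mitochondrially encoded calls, 2 of them higher, and 25 nuclear-encoded ones. Without WT copper replicate 3, 2 nuclear-encoded genes were called. How many of all genes were called in these last fits is not given here. In the 9 libraries 3 nuclear-encoded genes differed, all with a higher copper effect in KO: UQCRC2 (0.79 ± 0.21), NDUFA10 (0.60 ± 0.19) and NDUFB8 (0.60 ± 0.17).

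The 3 libraries that stood apart also differed from their group mates in which mitochondrial RNA they held. MT-CO3 took 54.6% and 57.1% of the mitochondrially encoded counts in KO untreated replicates 1 and 2, against 20.5% in replicate 3, and 16.8% to 25.0% in the other 9 libraries outside that group. MT-ND3 took 2.23% and 1.53% in replicates 1 and 2 and 18.2% in replicate 3. In CPM, MT-ND3 had 7304, 5972 and 6224 in KO copper, 566, 711 and 5509 in KO untreated, 1859, 4221 and 4968 in WT copper, and 1948, 1692 and 1950 in WT untreated. WT copper replicate 1 was low for MT-ND3 as well. In all, 6 genes were lower in all 3 libraries than in their group mates, namely MT-ND1, MT-ND3, MT-ND4L, MT-CYB, MT-CO2 and MT-ATP8, and MT-CO1 was higher in all 3. Of the nuclear-encoded genes 22 were lower in all 3, beside 3998 of 11051 over all genes, and NDUFS7 and NDUFV1 were higher in all 3. COX7B, a small complex IV subunit, had 9.01, 0 and 52.5 CPM in KO untreated, where 3 counts would be 3.07 CPM in replicate 2. NDUFA4, also of complex IV, had 2.77, 3.07 and 69.9 CPM there. COX4I1, the large nuclear subunit of complex IV, had 427, 470 and 554 CPM in KO untreated. The part of depth or RNA quality in these differences was not tested.

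The last 30 annotated bases are shown for 4 genes that were low in those libraries. They are also shown for 3 that were high there or in KO untreated alone. They come from GENCODE v29 transcripts on chromosome M of GRCh38, 5′ to 3′ on the strand of the gene, with the bases of the last codon in capitals, and were not the build the counts were made on. MT-ND3 ends at chrM:10375-10404, MT-CYB at chrM:15858-15887, MT-CO2 at chrM:8240-8269 and MT-ATP8 at chrM:8543-8572. MT-CO3 ends at chrM:9961-9990, MT-CO1 at chrM:7416-7445, and MT-ND6 on the minus strand at chrM:14149-14178.
MT-ND3: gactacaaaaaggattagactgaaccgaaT
MT-CYB: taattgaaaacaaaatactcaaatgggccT
MT-CO2: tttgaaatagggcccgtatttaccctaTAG
MT-ATP8: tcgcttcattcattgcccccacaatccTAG
MT-CO3: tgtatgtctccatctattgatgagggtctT
MT-CO1: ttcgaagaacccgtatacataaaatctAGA
MT-ND6: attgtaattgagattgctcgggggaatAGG
Of the 13 annotated sequences 6 end within a codon, which a poly(A) tail can complete into a stop, and 7 end with a whole one. Both kinds are found among the low and among the high genes. Reads of this kind lie near the polyadenylated end of an RNA, which can differ from the annotated end of a gene. Where that end lies, and whether each gene has an RNA end of its own, was not examined. The strand setting of the counting is not given, so counts of MT-ND6 may include reads from the opposite strand. MT-ATP6 shares 46 bases with MT-ATP8 and 1 with MT-CO3, and MT-ND4 shares 7 with MT-ND4L, so reads near these joints cannot be assigned with certainty. Nuclear copies of mitochondrial genes, 71 of them with counts, summed to 173.5 to 233.2 CPM in KO copper, 153.2 to 353.2 in KO untreated, 167.7 to 293.5 in WT copper and 77.6 to 100.2 in WT untreated, with MTRNR2L12 the most abundant.

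**Figure D5:**
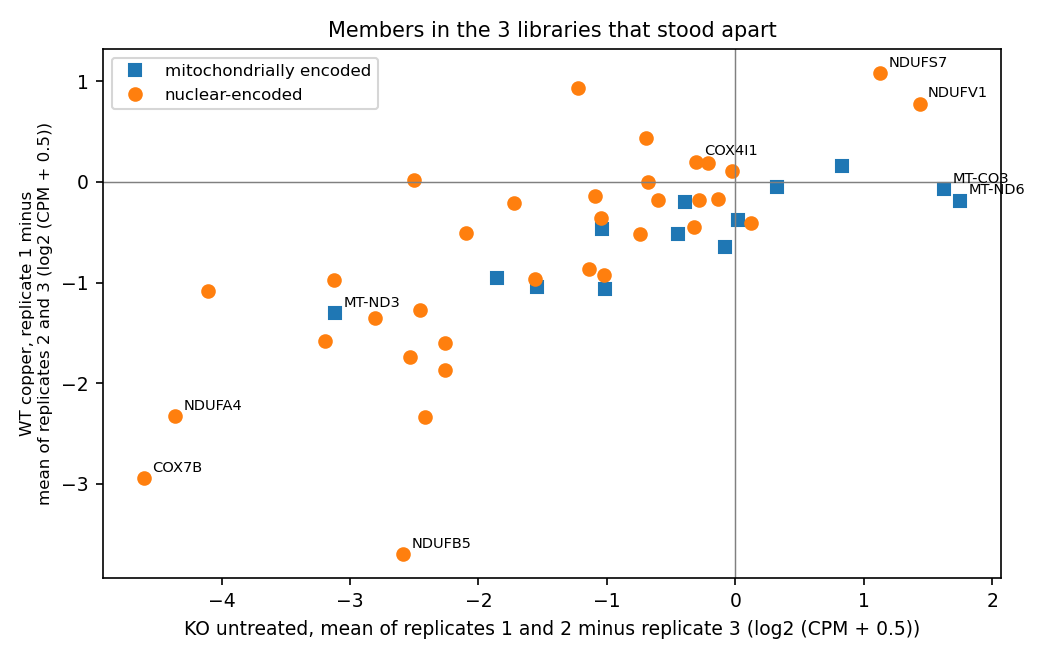
Deviation of each of the 47 genes in the libraries that stood apart, in log2 (CPM + 0.5): KO untreated replicates 1 and 2 minus replicate 3 (horizontal) and WT copper replicate 1 minus the mean of replicates 2 and 3 (vertical). Squares are mitochondrially encoded and circles nuclear-encoded genes. Of the 34 nuclear-encoded genes 22 are negative in all 3 libraries, beside 3998 of 11051 over all genes. NDUFS7 and NDUFV1 are positive in all 3, beside 2937 over all genes, and MT-CO3 and MT-ND6 lie far right.

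Genes that act on this system were described by count. MT-RNR1 and MT-RNR2, the ribosomal RNAs of the mitochondrion, both rose in WT copper, by 1.04 ± 0.26 and 0.84 ± 0.25, and MT-RNR1 rose in KO copper by 0.84 ± 0.25, which was 0.51 and not called without the 3 libraries that stood apart (edgeR adjusted p = 0.13). MT-RNR2 was at 0.26 in KO copper with no call in all libraries, and was called higher there in the remaining 9 (0.48 ± 0.16). Of 25 tested genes for mitochondrial transcription, RNA processing and DNA replication, 3 rose and none fell in WT copper, which is 12% of the list beside 8.23% of all genes higher, with a median of 0.21. These were TWNK, the replicative helicase (1.10 ± 0.30), POLG2, the accessory subunit of its polymerase (1.28 ± 0.35), and SSBP1, the single-strand binding protein (0.77 ± 0.22). In untreated KO cells 5 were higher and none lower, 20% of the list beside 17.9% of all genes higher, among them TWNK (1.36 ± 0.31), ELAC2, which cuts tRNAs out of the long transcripts (1.04 ± 0.19), and PNPT1, an RNA-degrading enzyme (0.93 ± 0.22), which had 0.92, 0.75 and 0.57 without the 3 libraries. In KO copper 3 rose and 1 fell, 12% and 4% of the list beside 15.2% and 18.5% of all genes, and TFAM, which packages mitochondrial DNA and starts its transcription, was higher than in untreated KO by 1.16 ± 0.38, a call lost without the 3 libraries that stood apart (0.37, adjusted p = 0.063). Without them 9 of 26 tested rose and 2 fell in WT copper, 5 rose and 2 fell in KO copper, and 5 were higher and 1 lower in untreated KO. The shares of the list that rose were 19.2% in KO copper, beside 19.1% of all genes, and 34.6% in WT copper, beside 20.4%, and 19.2% were higher in untreated KO, beside 16.8%. Of 8 regulators of mitochondrial biogenesis 1 rose and 1 fell in KO copper, 1 fell in WT copper, and 1 was higher and 1 lower in untreated KO. Each of these counts is 12.5% of the list. Over all genes 15.2% rose and 18.5% fell in KO copper, 6.68% fell in WT copper, and 17.9% were higher and 14.0% lower in untreated KO. PPARGC1A, the coactivator known as PGC-1alpha, fell in both lines, with log2 fold changes of -2.36 ± 0.44 in KO copper and -2.11 ± 0.34 in WT copper, and was lower in untreated KO than in untreated WT (-1.65 ± 0.34), and these 3 calls held in the remaining 9 libraries. PPARGC1B, the related coactivator, was higher in untreated KO (2.93 ± 0.98, edgeR adjusted p = 0.039), with 1.68 and no call in those 9 (adjusted p = 0.16). GABPB1, a subunit of the ETS factor GABP, rose in KO copper by 1.90 ± 0.54 (1.03 ± 0.36 in the 9 libraries). The medians of the 8 regulators in those libraries were 0.10 in KO copper, 0.01 in WT copper and 0.07 in untreated KO. In all libraries they were -0.38, 0.30 and -0.05.

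Among genes for other parts of these complexes, of 29 further chain subunits 1 fell and none rose in WT copper, 1 rose and 3 fell in KO copper, and 2 were higher and 7 lower in untreated KO cells. The medians were -0.48, 0.44 and -0.56 in these comparisons. The shares that fell were 3.45% in WT copper and 10.3% in KO copper, and 24.1% were lower in untreated KO, beside 6.68%, 18.5% and 14.0% of all genes. The remaining 9 libraries had 1 that rose and 12 that fell in WT copper. In KO copper 2 rose and 7 fell there, and 2 were higher and 8 lower in untreated KO. That is 41.4% and 24.1% of the list falling and 27.6% lower in untreated KO, beside 19.6%, 20.5% and 17.7% of all genes. CYCS, cytochrome c itself, was higher in untreated KO by 2.47 ± 0.58, with 0.10 and an edgeR adjusted p of 0.80 without the 3 libraries, and lower in KO copper by -1.56 ± 0.56, with 0.79 and the opposite call without them. NDUFV3, a small complex I subunit, fell in both lines, by 0.56 ± 0.17 in KO copper and 0.59 ± 0.17 in WT copper. Of 16 nuclear ATP synthase genes 2 fell in WT copper and 2 in KO copper, 12.5% of the list each time beside 6.68% and 18.5% of all genes, ATP5ME being in both (-0.90 ± 0.21 in KO and -0.70 ± 0.21 in WT). Without the 3 libraries 12 fell in WT copper and 5 in KO copper, and none rose, 75.0% and 31.2% of the list beside 19.6% and 20.5% of all genes. In untreated KO 3 were lower, 18.8% of the list beside 14.0% of all genes. The median was -0.75, and -0.17 in the 9 libraries. Of 24 genes for building complex IV and bringing it copper, 1 fell in WT copper, COA3 (-0.85 ± 0.20), while 2 rose and 6 fell in KO copper. The 1 gene lower in WT copper was 4.17% of the list beside 6.68% of all genes. Those that fell in KO copper were 25.0% beside 18.5%, and those that rose 8.33% beside 15.2%. COA5 fell there by 1.62 ± 0.29, TACO1, a translational activator of MT-CO1, by 1.35 ± 0.25 and COA3 by 0.75 ± 0.20. Without the 3 libraries COA5 and TACO1 were at -0.89 and -0.87, and 1 gene of the list rose and 8 fell in KO copper, while 1 rose and 5 fell in WT copper. The shares that fell were 33.3% in KO copper and 20.8% in WT copper, beside 20.5% and 19.6% of all genes. In untreated KO cells 3 genes of the list were higher and 2 lower, 12.5% and 8.33% beside 17.9% and 14.0% of all genes. The median was -0.28, and 0.07 in the 9 libraries. SCO1 and SCO2, which hand copper to MT-CO2, were higher in untreated KO cells, by 0.63 ± 0.20 and 1.14 ± 0.40 (0.77 and 0.48 without the 3 libraries). COX10, which makes the heme precursor for complex IV, and HIGD2A, an assembly factor, were lower there (-1.79 ± 0.57 and -1.99 ± 0.65, with -1.02 and -0.84 without the 3 libraries). Of 24 genes for building complexes I to III none changed past the threshold in WT copper by edgeR, beside 14.9% of all genes. At an unadjusted p below 0.05 there were 6, and DESeq2 called 3, beside 3304 and 2116 of all 11051 genes. In KO copper 3 rose and 4 fell, 12.5% and 16.7% of the list beside 15.2% and 18.5% of all genes. The remaining 9 libraries had 2 that rose and 5 that fell in WT copper, and 3 that rose and 5 that fell in KO copper. The 5 that fell were 20.8% of the list in either line, beside 20.5% of all genes lower in KO copper and 19.6% in WT copper. In untreated KO 2 were higher and 1 lower, 8.33% and 4.17% of the list beside 17.9% and 14.0% of all genes. The median was -0.11, and 0.03 in the 9 libraries. The summed hepatocyte markers given above were lower with copper in both lines and in KO than in WT, and their part in these results was not tested.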

How the data were processed

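Per the labels' protocols, libraries were made with the QuantSeq 3′ mRNA kit (total RNA input 100 ng, 300 bp fragments) and sequenced as single 75 bp reads. Per the submitters' processing notes, STAR 2.3.0, HTSeq and hg19 were used; the sources used here do not give the annotation release or the strand setting. The authors deposited raw counts per gene and did not normalize them. Without molecular identifiers amplified copies count as separate reads, so intervals and floors cover counting error only.

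Symbols were found for 45776 of 47634 IDs (99.51% of counts), from the gene name tables and GENCODE v29. Tests used edgeR 4.0.16 in R 4.3.3: filterByExpr (11051 genes), TMM factors, robust quasi-likelihood fit of 4 group means (biological coefficient of variation 29.1%), Benjamini-Hochberg adjustment over all genes, threshold 0.05. The 5 contrasts were copper in each line, KO against WT with and without copper, and the difference of the copper effects. The code was tested on simulated counts. Alternatives were RLE factors, no filter, DESeq2 1.42.0, voom of limma 3.58.1, totals without mitochondrially encoded genes, a replicate block, leaving out each library and the remaining 9 libraries, 19 in all. All 47 genes could be named; of other lists, up to 4 genes with the smallest adjusted p per contrast, and a few regulators and copper carriers. Members and lists were chosen with earlier results of these data known.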

Additional observations from a re-analysis of the deposited data

Results flagged for a closer look

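The effect of copper differed between the lines for 2 mitochondrially encoded genes, tested as the difference of the copper effects with edgeR over 11051 genes. For MT-CO1 the effect was 0.42 in KO and 2.14 in WT on the log2 scale, a difference of -1.72 (adjusted p = 0.038). Its levels were 934, 990 and 1039 CPM in KO copper, against 781, 1077 and 515 in KO untreated, where the groups overlapped. For MT-CO3 the effect was -0.84 in KO and 1.65 in WT, a difference of -2.50 (adjusted p = 0.042). MT-CO3 had 7466, 7920 and 9068 CPM in KO copper, against 13817, 26532 and 6205 in KO untreated. In the 9 libraries without WT copper replicate 1 and KO untreated replicates 1 and 2 the differences were -1.01 and -1.15, with adjusted p-values of 3.2e-05 and 0.052. Over the 19 alternatives the adjusted p ran over 9.7e-06 to 0.116 for MT-CO1 and 1.2e-07 to 0.122 for MT-CO3. Either call was lost with the replicate block and when any 1 of 10 libraries was left out. Such fits also called fewer of all genes: 545 of 11051 in the main fit, 113 with the block and 13 of 11479 without WT untreated replicate 1. The call of MT-CO3 was also lost with limma voom. Groups of 3 libraries were not tested for single outlying values.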

How the results depend on the processing

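Numbers of called genes are given for the 5 comparisons of the edgeR test. Without the 3 libraries that stood apart, a choice made after seeing the data, the mitochondrially encoded genes called were 10 for copper in KO (6 in all libraries), 12 for KO against WT untreated (7), 5 for KO against WT in copper (0) and 9 for the difference of copper effects (2), and the nuclear-encoded ones 10 for copper in KO (5), 17 for copper in WT (1), 12 for KO against WT in copper (0) and 3 for the difference (0). For the difference of copper effects in the 13 genes, no filter gave 5, DESeq2 7, limma voom 1 and the replicate block 0. Of all genes these fits called 2366, 1831, 160 and 113, beside 545 in the main fit. The fit with no filter tested 24210 genes and the others 11051. For the 34 nuclear-encoded genes and copper in KO, RLE factors gave 8, no filter 14, DESeq2 9, limma voom 9 and the block 8. All-gene calls were 3766, 4389, 4193, 3726 and 3715, beside 3721 in the main fit. For copper in WT the same settings gave 0, 8, 4, 3 and 0 nuclear-encoded calls in that order. All-gene calls were 1666, 2135, 2116, 1881 and 1490 there, beside 1648. For KO against WT untreated no filter gave 19, limma voom 14 and the block 14, with 4268, 3630 and 3521 calls over all genes, beside 3522 in the main fit. For KO against WT in copper no filter and DESeq2 gave 4 each, with 1949 and 2022 over all genes, beside 1525. For the difference they gave 17 and 7, with the all-gene calls given above.

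Leaving out 1 library gave 4 to 10, 6 to 13, 6 to 10, 0 to 4 and 0 to 9 mitochondrially encoded calls for copper in KO, copper in WT, KO against WT untreated, KO against WT in copper and the difference, and 1 to 26, 0 to 15, 2 to 26, 0 to 8 and 0 to 25 nuclear-encoded calls. The highest value came without KO untreated replicate 3 in all but KO against WT untreated for the first set. Calls over all genes moved as well. Without WT untreated replicate 1 they went from 1648 of 11051 to 737 of 11479 for copper in WT. For KO against WT untreated they went from 3522 to 2058 in that fit. The all-gene calls without KO untreated replicate 3 are not given here. The log2 ratio of the summed genomes ran over -0.23 to 0.49, 1.82 to 2.05, 1.66 to 2.37, 0.13 to 0.31 and -2.18 to -1.46 in the same order. With the median of members in place of the sum it was 0.67 for copper in KO, 1.51 for KO against WT untreated and -1.33 for the difference; without MT-CO3 0.67, 1.46 and -1.24; and without the 3 libraries 0.71, 1.43 and -1.30. Same-numbered libraries did not vary together (correlations of -0.22 to 0.09, none above 0.1). Groups of 3, with 3 libraries that stood apart, cannot show whether the numbers pair them, and the labels do not say.

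Changes of sign came with single genes. MT-ND3 in KO against WT untreated was 0.10 in all libraries, -1.60 without KO untreated replicate 3 and up to 0.55 without replicate 1. Without the 3 libraries that stood apart the values were -0.95 for MT-ND3 and -1.05 for MT-ATP8 in the difference of copper effects, and 0.30 for MT-ND4L, -0.45 for NDUFS7 and 0.40 for NDUFS8 in KO against WT untreated. They were -0.38 for NDUFS8, -0.36 for UQCRQ, -0.73 for UQCRFS1 and -0.34 for COX5B with copper in KO, and 0.33 for NDUFV2 with copper in WT. The cause was not tested. Depth limits genes near the floor of 3 counts, such as SDHD, with 2 to 18 counts per library.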
